A study of Rattus norvegicus with 32 samples.

Results

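The nucleus accumbens, the ventral part of the striatum, receives dopamine, serotonin, noradrenaline and histamine from distant cell groups, acetylcholine from its own interneurons and many peptides made locally. Receptors read these transmitters. Most are G protein coupled, with Gs raising and Gi lowering cyclic AMP and Gq releasing calcium, while the nicotinic and 5-HT3 receptors are ion channels. Methamphetamine (METH) is a psychostimulant that releases dopamine and other monoamines, which then act on these receptors.

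The genes described here are those whose symbol in the platform annotation begins with the name of a serotonin, adrenergic, histamine, dopamine D3 to D5, muscarinic, nicotinic, opioid, somatostatin, neuropeptide Y, tachykinin, neurotensin or corticotropin-releasing hormone receptor, or with Adora1, Adora2b or Cnr1. The rule uses names alone and found 64 probes for 64 genes among 22523 probes. One of them, Oprpn, shares the letters of the opioid receptors but encodes a secreted peptide precursor and no receptor. No probe carried a name of the corticotropin-releasing hormone receptors, nor the names Adra2a, Npy1r, Oprk1, Sstr3 or Ntsr2.

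Male Sprague-Dawley rats (age not given in the labels) gave total RNA from this region 1 h after 1 injection of METH at 20 mg/kg (5 arrays) or after saline (4 arrays) and hybridised to Illumina beadchips. The arrays lay on 2 slides, with METH arrays 1 and 2 and saline arrays 1 and 2 on slide 1 and the others on slide 2. The labels do not say that each array is a separate rat, so a p-value here reflects array-to-array spread, which may be technical. Mean intensity per array was 187.9 to 231.4 on METH arrays and 164.3 to 187.8 on saline arrays, and 41.9% to 47.3% against 41.5% to 44.5% of all probes were above background (detection p under 0.05). Of 21 named markers of striatal projection neurons, all 21 were above background on at least 4 arrays. METH array 2 stood apart from the other METH arrays in markers of cortical neurons and values without it are given further on. Tissue RNA was measured, so more cells of a type and more RNA per cell cannot be told apart.

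Of the 64 probes, 19 were above background on all 9 arrays, 11 on 4 to 8, 10 on 1 to 3 and 24 on none. The 30 above background on at least 4 arrays were tested, which is 46.9% of the receptor probes, against 44.3% of all probes and 53.2% of those with a gene name. A detection threshold of 0.01 left 19. Per array, 25, 28, 26, 29 and 34 receptor probes were above background on METH arrays 1 to 5, against 25, 21, 29 and 31 on saline arrays 1 to 4.

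**Figure D1:**
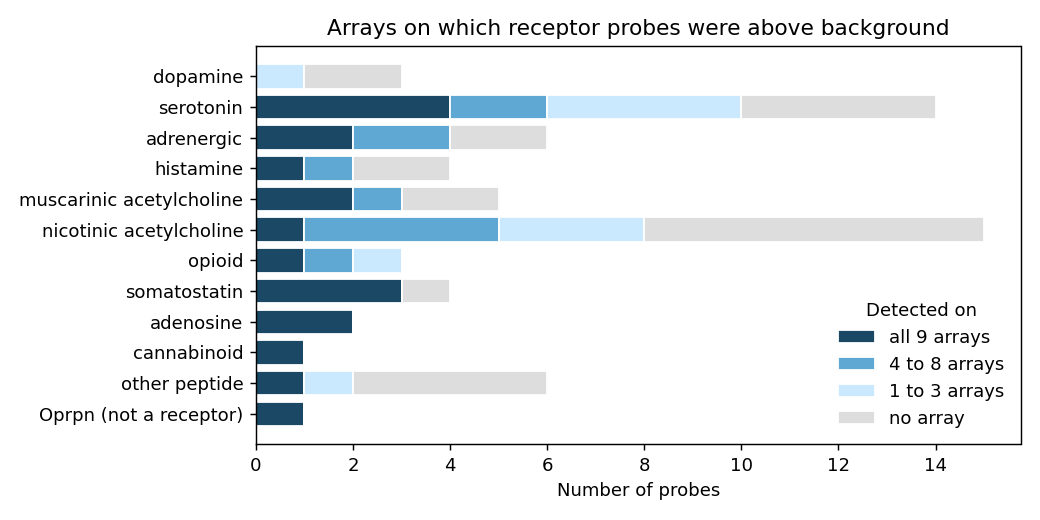
Number of receptor probes (horizontal axis) in each receptor family (rows), split by the number of the 9 arrays on which the probe was above background. Somatostatin, adenosine and cannabinoid receptors were mostly detected on all 9 arrays. None of the 3 probes for the dopamine D3 to D5 receptors reached 4 arrays. Drd1 and Drd2, which the name rule leaves out, were above background on 5 of 5 METH and 4 of 4 saline arrays.

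The families differed in how many members were seen. Both adenosine receptor probes, the cannabinoid receptor Cnr1 and 3 of 4 somatostatin receptors (Sstr1, Sstr2 and Sstr4) were above background on every array. Of 14 serotonin receptor probes 6 were tested, of 6 adrenergic probes 4, of 4 histamine probes 2, of 5 muscarinic probes 3, of 15 nicotinic subunits 5 and of 3 opioid receptor probes 2. Of 6 probes for neuropeptide Y, neurotensin and tachykinin receptors, Tacr1 alone was tested. The probes below background on all 9 arrays were Drd3, Drd4, Htr1a, Htr2b, Htr3b, Htr5a, Adra2b, Adrb1, Hrh2, Hrh4, Chrm2, Chrm5, Chrna1, Chrna2, Chrna3, Chrna9, Chrna10, Chrnb3, Chrne, Npy2r, Npy4r, Ntsr1, Tacr3 and Sstr5. Drd5, Htr1b, Htr1f, Htr4, Htr5b, Chrna7 and Chrng were detected on 1 array each, and Chrnb4, Oprd1 and Npy5r on 3. A probe below background gives a bound on its signal and does not show that the receptor is absent.

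The comparison asked which receptor transcripts differed 1 h after METH. None of the 30 receptor probes passed an adjusted p of 0.05 in either direction (limma, Benjamini-Hochberg over all 9987 probes tested), where 0.521% of all probes tested passed, 0.491% higher and 0.03% lower. At an unadjusted p under 0.05 there were 5 receptor probes higher and 2 lower with METH (16.7% and 6.67% of the 30), where 5.33% and 5.66% of all probes tested were, 11% in all. The 5 were Sstr1, Sstr2, Chrm3, Adra1b and Chrna4, of which Chrna4 was above background mainly on METH arrays, and the 2 were Htr3a and Htr7. The median log2 fold change of the 30 was 0.036, against -0.023 over all probes tested, and their median 95% interval was ±0.40. Levels and fold changes below are on the log2 scale of the normalised intensities, which carry an offset of 16, so that changes of dim probes are understated.

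**Figure D2:**
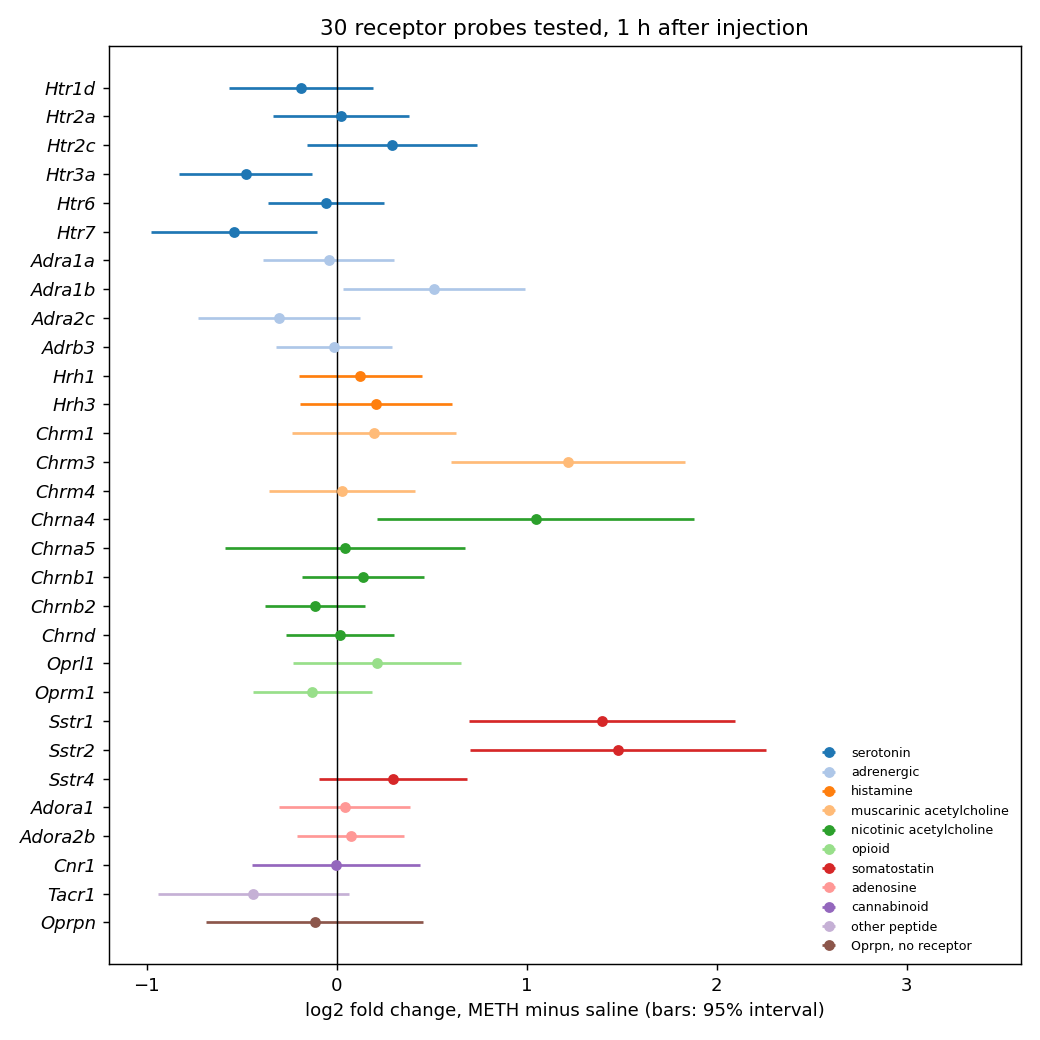
Log2 fold change, METH minus saline (horizontal axis, with 95% interval as bars), of the 30 probes tested, coloured by family and listed down the page. Sstr1, Sstr2, Chrm3 and Chrna4 lie at 1.05 to 1.48, and the other probes lie between -0.54 and 0.51.

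The promoters of the 3 receptors with the smallest p are shown because these receptors lead the comparison. Each is the stretch of 250 bases before the RefSeq gene start in build GRCr8, 5′ to 3′ in the direction of the gene, with motif matches in capitals. The motifs searched on both strands were the cyclic AMP response element TGACGTCA, its shorter core TGACG, which lies within it, the AP-1 site TGANTCA and the EGR site GCGNGGGCG.
Sstr1 (chr6:81567233-81567482, plus strand): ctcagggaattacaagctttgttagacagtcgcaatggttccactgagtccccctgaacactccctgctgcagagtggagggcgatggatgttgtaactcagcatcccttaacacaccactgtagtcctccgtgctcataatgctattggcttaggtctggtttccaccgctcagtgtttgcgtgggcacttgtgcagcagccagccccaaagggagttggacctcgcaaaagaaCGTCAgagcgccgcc
Sstr2 (chr10:99163103-99163352, plus strand): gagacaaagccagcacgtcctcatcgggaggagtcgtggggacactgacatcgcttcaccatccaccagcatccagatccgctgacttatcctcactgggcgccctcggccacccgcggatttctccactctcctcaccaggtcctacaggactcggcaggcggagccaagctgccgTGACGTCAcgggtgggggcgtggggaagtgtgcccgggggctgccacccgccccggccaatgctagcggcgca
Chrm3 (chr17:64696677-64696926, plus strand): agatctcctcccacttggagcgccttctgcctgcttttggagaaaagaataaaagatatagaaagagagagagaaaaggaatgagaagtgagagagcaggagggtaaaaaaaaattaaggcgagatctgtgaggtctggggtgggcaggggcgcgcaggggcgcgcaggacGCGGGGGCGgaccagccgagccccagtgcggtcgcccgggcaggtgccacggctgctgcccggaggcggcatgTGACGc
Sstr2 held the full element 73 bases before the start, which 1.59% of 33469 RefSeq promoters of that length hold. Sstr1 and Chrm3 each held 1 match to the shorter core, at 15 and 6 bases before the start, as 18.2% of promoters do, and Chrm3 also held 1 EGR match, as 4.29% do. No AP-1 match lay in the 3 windows (6.34% of all promoters hold one). The share of G and C was 54.4% for Sstr1, 66.4% for Sstr2 and 60.0% for Chrm3, against a median of 51.2% over all promoters. The shares of promoters with a motif were not matched for it. A match is a description of the letters and not a binding site.

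Sstr1 and Sstr2 had the largest fold changes of the 30 receptor probes, and neither passed. Somatostatin receptors are Gi-coupled receptors for somatostatin, which in the striatum comes from local interneurons, and for cortistatin. Sstr1 had levels of 8.09, 7.66, 8.12, 8.46 and 9.38 on the 5 METH arrays, against 6.67, 6.84, 6.54 and 7.74 on the 4 saline arrays. METH array 5 was highest, and METH array 2, at 7.66, lay just below saline array 4, at 7.74, so the groups overlapped by that pair. Its mean was 2.64-fold higher with METH (log2 fold change 1.40 ± 0.32 SE, 95% interval 0.70 to 2.10), which did not pass (limma, adjusted p = 0.111).

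Sstr2 had levels of 8.61, 6.90, 8.59, 8.77 and 8.84 on the 5 METH arrays, against 7.01, 6.52, 6.50 and 7.42 on the 4 saline arrays. METH arrays 1, 3, 4 and 5 lay together above every saline array, and METH array 2 lay among the saline arrays. The mean was 2.79-fold higher (log2 fold change 1.48 ± 0.36 SE, 95% interval 0.70 to 2.26, limma adjusted p = 0.132). Sstr4 had levels of 5.83, 5.50, 6.41, 6.02 and 5.96 on the 5 METH arrays, against 5.56, 5.45, 5.98 and 5.59 on the 4 saline arrays, which overlapped widely, with a log2 fold change of 0.30 ± 0.18 SE (limma, adjusted p = 0.579). In the deposited, unscaled intensities, Sstr1 read 276.4, 229.9, 310.7, 322 and 669.1 on METH arrays 1 to 5, against 87.2, 84.2, 69.9 and 161.4 on saline arrays 1 to 4, and Sstr2 read 399.1, 128.9, 440.5, 406.7 and 442.2 on METH arrays 1 to 5, against 115.7, 65.3, 68 and 128 on saline arrays 1 to 4. On that scale all METH arrays lay above all saline arrays for Sstr1, Sstr2 and Chrm3, that is 3 of 30 receptor probes, where 9.88% of all probes tested did so. On the normalised scale none of the 30 receptor probes tested separated the groups, where 1.96% of all probes tested had every METH array above and 2.29% every METH array below the saline arrays.

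Among muscarinic acetylcholine receptors, Chrm3, which couples to Gq, was 2.33-fold higher with METH. Its levels were 9.36, 8.41, 9.46, 9.55 and 10.14 on the 5 METH arrays, against 7.94, 8.41, 7.78 and 8.52 on the 4 saline arrays. METH array 2 again lay among the saline arrays, and the other 4 METH arrays lay above all of them. The log2 fold change was 1.22 ± 0.28 SE (95% interval 0.60 to 1.83, limma adjusted p = 0.115). Chrm4, a Gi-coupled receptor known from the D1-type projection neurons of the striatum, had levels of 7.64, 7.99, 7.66, 7.38 and 7.20 on the 5 METH arrays, against 7.27, 7.86, 7.63 and 7.41 on the 4 saline arrays. Those groups overlapped throughout, with a log2 fold change of 0.03 ± 0.18 SE and a 95% interval of -0.36 to 0.42. Chrm1, also Gq-coupled, was above background on 3 of 5 METH arrays and 2 of 4 saline arrays, with levels of 5.11, 5.15, 6.003, 5.53 and 5.69 on the 5 METH arrays, against 4.87, 5.31, 5.49 and 5.52 on the 4 saline arrays and a log2 fold change of 0.20 ± 0.20 SE.

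**Figure D3:**
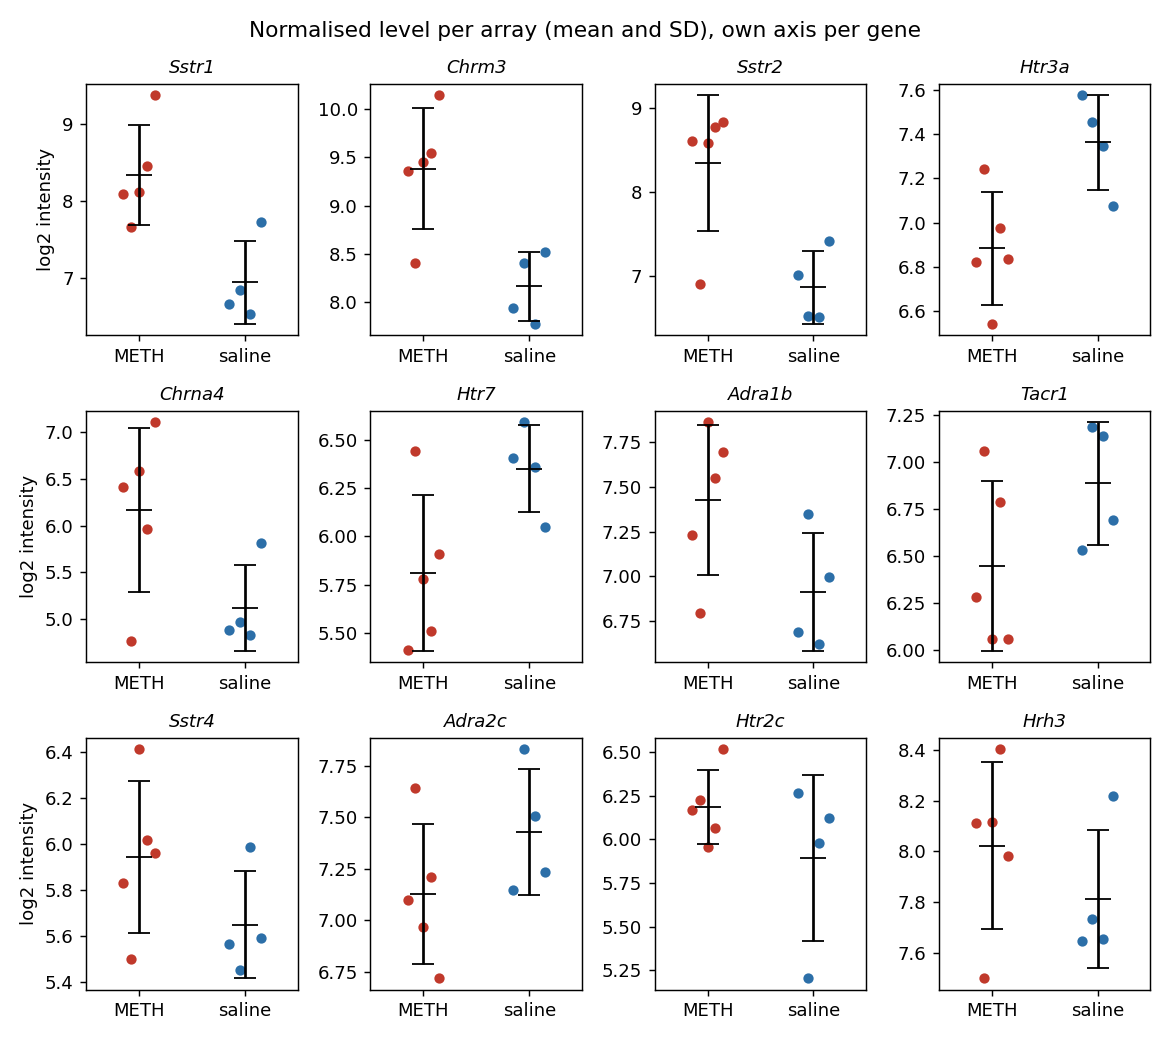
Normalised level (vertical axis, log2 intensity, own range per panel) on each array (points) for the 12 receptor probes with the smallest p, with METH left of saline and the mean and SD as bars. Sstr1, Sstr2 and Chrm3 are higher on METH arrays 1, 3, 4 and 5 than on every saline array, and Htr3a and Htr7 are lower on most METH arrays.

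Of the nicotinic subunits, Chrna4, which forms the high-affinity brain receptor with Chrnb2, differed most. It was above background on 4 of 5 METH arrays and 1 of 4 saline arrays, so it entered the test through the METH arrays. Its levels were 6.41, 4.77, 6.59, 5.96 and 7.11 on the 5 METH arrays, against 4.88, 4.96, 4.83 and 5.81 on the 4 saline arrays, a log2 fold change of 1.05 ± 0.38 SE (limma, adjusted p = 0.329). METH array 2 had the lowest value of all 9 arrays, and saline array 4 stood above the other saline arrays. Its partner Chrnb2 had levels of 5.23, 5.31, 5.29, 5.57 and 5.18 on the 5 METH arrays, against 5.58, 5.39, 5.48 and 5.27 on the 4 saline arrays, which overlapped, and a log2 fold change of -0.12 ± 0.12 SE. Chrna5, an accessory subunit, had 0.046 ± 0.29 SE, and the muscle-type subunits Chrnb1 and Chrnd had 0.14 ± 0.15 SE and 0.017 ± 0.13 SE. None of the 3 had an interval that left out 0.

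The serotonin receptors held the 2 lower values. Htr3a, the channel-forming subunit of the 5-HT3 receptor, had levels of 6.82, 7.24, 6.54, 6.98 and 6.84 on the 5 METH arrays, against 7.57, 7.45, 7.35 and 7.07 on the 4 saline arrays. METH array 2 was the highest METH array and the only one above saline array 4, the lowest saline array. The mean with METH was lower (log2 fold change -0.48 ± 0.16 SE, 95% interval -0.83 to -0.13, limma adjusted p = 0.283). Htr7, which couples to Gs, had levels of 5.41, 6.44, 5.78, 5.51 and 5.91 on the 5 METH arrays, against 6.41, 6.59, 6.36 and 6.05 on the 4 saline arrays. The 4 METH arrays other than array 2 lay below every saline array, and the log2 fold change was -0.54 ± 0.20 SE (95% interval -0.98 to -0.10, limma adjusted p = 0.346).

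The other serotonin receptors overlapped between the groups. Htr2c, a Gq-coupled receptor of striatal and choroid plexus cells, had levels of 6.16, 6.22, 5.95, 6.06 and 6.51 on the 5 METH arrays, against 6.27, 5.21, 5.98 and 6.12 on the 4 saline arrays, where saline array 2 was the lowest. The log2 fold change was 0.29 ± 0.21 SE, and 0.0608 without that array. Htr2a, also Gq-coupled and abundant in cortical pyramidal neurons, had levels of 6.05, 6.01, 5.61, 6.36 and 5.73 on the 5 METH arrays, against 6.02, 5.77, 6.15 and 5.78 on the 4 saline arrays, a log2 fold change of 0.022 ± 0.17 SE and a 95% interval of -0.34 to 0.38. Htr1d, a Gi-coupled receptor found on nerve terminals, had levels of 5.74, 6.11, 5.41, 5.33 and 5.22 on the 5 METH arrays, against 5.74, 5.63, 5.85 and 5.76 on the 4 saline arrays and a log2 fold change of -0.19 ± 0.17 SE. METH array 2 was highest and METH array 5 lowest, and the fold change was 0.237 within slide 1 and -0.488 within slide 2. Htr6, a Gs-coupled receptor of striatal neurons, had levels of 5.38, 5.50, 5.31, 5.27 and 4.98 on the 5 METH arrays, against 5.16, 5.16, 5.48 and 5.58 on the 4 saline arrays and a log2 fold change of -0.056 ± 0.14 SE, and it was above background on 4 of 5 METH and 2 of 4 saline arrays.

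Among adrenergic receptors, Adra1b, a Gq-coupled receptor for noradrenaline, had levels of 7.23, 6.80, 7.86, 7.55 and 7.69 on the 5 METH arrays, against 6.69, 7.35, 6.62 and 6.996 on the 4 saline arrays. METH arrays 3, 4 and 5 were the highest of all 9, while METH arrays 1 and 2 lay within the saline range. The log2 fold change was 0.51 ± 0.22 SE (95% interval 0.03 to 0.99, limma adjusted p = 0.427), with -0.0024 within slide 1 and 0.89 within slide 2. Adra2c, a Gi-coupled receptor abundant in the striatum, had levels of 7.10, 7.64, 6.97, 7.21 and 6.72 on the 5 METH arrays, against 7.15, 7.83, 7.50 and 7.23 on the 4 saline arrays and a log2 fold change of -0.30 ± 0.20 SE. Adra1a was detected on 5 of 5 METH and 2 of 4 saline arrays, although its levels of 5.57, 5.52, 5.30, 5.31 and 5.21 on the 5 METH arrays, against 5.83, 5.07, 5.24 and 5.54 on the 4 saline arrays overlapped fully. Its log2 fold change was -0.041 ± 0.16 SE, and that of Adrb3 was -0.011 ± 0.14 SE.

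Of the histamine receptors, Hrh3, the Gi-coupled receptor that limits transmitter release, had levels of 8.11, 7.50, 8.12, 8.40 and 7.98 on the 5 METH arrays, against 7.65, 7.74, 7.66 and 8.22 on the 4 saline arrays. METH array 2 was the lowest and METH array 4 the highest, and the log2 fold change was 0.21 ± 0.18 SE. Hrh1, which couples to Gq, had 0.13 ± 0.15 SE. Among peptide receptors, Tacr1, the substance P receptor, which in the striatum marks interneurons, had levels of 6.28, 7.06, 6.05, 6.79 and 6.05 on the 5 METH arrays, against 6.53, 7.19, 7.14 and 6.69 on the 4 saline arrays. METH arrays 1, 3 and 5 lay below all saline arrays, and the log2 fold change of -0.44 ± 0.23 SE did not pass (limma, adjusted p = 0.523).

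Neither opioid receptor tested passed. Oprm1, the mu receptor on which morphine acts, was above background on 2 of 5 METH and 3 of 4 saline arrays, with levels of 5.25, 5.54, 5.42, 5.16 and 4.86 on the 5 METH arrays, against 5.45, 5.50, 5.24 and 5.30 on the 4 saline arrays. Its log2 fold change was -0.13 ± 0.14 SE, with a 95% interval of -0.44 to 0.18. Oprl1, the nociceptin receptor, had levels of 6.24, 6.89, 7.06, 6.90 and 7.31 on the 5 METH arrays, against 6.55, 7.0, 6.41 and 6.70 on the 4 saline arrays and a log2 fold change of 0.21 ± 0.20 SE, with a 95% interval of -0.23 to 0.65. METH array 1 was the lowest and METH array 5 the highest, and the log2 fold change was 0.371 without METH array 1 (limma, adjusted p = 0.449), -0.213 within slide 1 and 0.531 within slide 2. Oprpn, the peptide precursor, had -0.12 ± 0.26 SE.

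Cnr1, Adora1 and Adora2b were close to saline. Adora2a, an adenosine receptor that the name rule leaves out, had a log2 fold change of -0.79 ± 0.19 SE (limma, adjusted p = 0.124). Cnr1, the presynaptic cannabinoid receptor, had levels of 6.86, 6.24, 7.35, 7.14 and 7.15 on the 5 METH arrays, against 7.04, 6.74, 7.03 and 7.01 on the 4 saline arrays, with a log2 fold change of -0.0043 ± 0.20 SE and a 95% interval of -0.45 to 0.44. METH array 2 was the lowest and METH array 3 the highest of all 9, with -0.338 within slide 1 and 0.197 within slide 2. Adora1, the Gi-coupled adenosine receptor, had levels of 8.05, 7.66, 8.11, 8.28 and 8.52 on the 5 METH arrays, against 8.12, 7.98, 8.04 and 8.18 on the 4 saline arrays, a log2 fold change of 0.043 ± 0.16 SE and a 95% interval of -0.30 to 0.39. METH array 2 was again the lowest, with -0.197 within slide 1 and 0.194 within slide 2. Adora2b, which couples to Gs, had 0.074 ± 0.13 SE.

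The receptor calls depended most on METH array 2. Without it, 250 of 9870 probes passed, and 5 of 30 receptor probes were among them, namely Sstr1 (log2 fold change 1.57, limma adjusted p = 0.0213), Sstr2 (1.84, adjusted p = 0.000361), Chrm3 (1.47, adjusted p = 0.00312) and Chrna4 (1.39, adjusted p = 0.0171), which were higher, and Htr7 (-0.70, adjusted p = 0.0451), which was lower. METH array 2 was the lowest METH array for Sstr1, Sstr2, Chrm3 and Chrna4 and the highest for Htr7. Leaving it out therefore widens these differences, and none of these calls is independent support. Chrna4 had also entered the test through the METH arrays. Among receptors that did not pass without METH array 2, the log2 fold changes were -0.566 for Htr3a and 0.667 for Adra1b (limma, adjusted p = 0.0867 and 0.102), -0.591 for Tacr1, -0.429 for Adra2c, -0.321 for Htr1d, 0.338 for Hrh3, 0.173 for Cnr1 and 0.159 for Adora1. Without saline array 4, Sstr1 passed among 44 of 9794 probes (limma, 1.67, adjusted p = 0.0413), and without any of the other 7 arrays no receptor probe did. Array weights, which let limma give less weight to aberrant arrays, called Sstr1, Sstr2 and Chrm3 (limma, adjusted p = 0.0075, 0.011 and 0.00817), among 251 of 9987 probes. The same 3 passed in unscaled intensities (limma, adjusted p = 0.00527, 0.0109 and 0.00472), among 225 of 9987 probes, where the median of all probes was itself 0.23 higher with METH. Within slide 1 and within slide 2 the log2 fold changes were 1.12 and 1.52 for Sstr1, 0.992 and 1.77 for Sstr2, 0.705 and 1.57 for Chrm3, 0.667 and 1.23 for Chrna4, -0.571 and -0.471 for Htr7 and -0.482 and -0.425 for Htr3a, and none passed within a slide.

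Markers of cortical neurons were mostly higher with METH, by 0.604 on the log2 scale at the median, and low on the same METH array. Of 17 such markers, 11 had a named probe and 9 were tested, and none passed. The median of the 9 relative to the saline mean was 0.496, -0.198, 0.795, 0.895 and 0.844 on METH arrays 1 to 5, against -0.0868, -0.0428, -0.242 and 0.407 on saline arrays 1 to 4. METH array 2 lay within the saline range in these markers, and saline array 4 was the highest of the saline arrays, as it was for Sstr1, Sstr2, Chrm3 and Chrna4. The summed linear level of the 9 was 14150 to 19620 on METH arrays and 12340 to 17260 on saline arrays. That sum is set mostly by Nrgn, Lmo4 and Lamp5, with mean log2 levels of 12.96, 12.43 and 11.02 on METH arrays, where Slc17a7 had 7.22. Slc17a7, the vesicular glutamate transporter of cortical neurons, was above background on 4 of 5 METH and 2 of 4 saline arrays, with a log2 fold change of 1.81 ± 0.63 SE (limma, adjusted p = 0.301). That was the largest fold change of the 9. Some of the 9, such as Nrgn, Camk2a, Lmo4 and Lamp5, are also expressed by striatal neurons. Their log2 fold changes were 0.48, 0.23, 0.15 and -0.35 in that order, and Lamp5 alone of the 9 was lower with METH.

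With the marker median as a covariate the leading differences were smaller. Some receptors close to saline in the reported fit moved away from 0 instead. Chrna5 went from 0.046 to -0.572, Cnr1 from -0.0043 to -0.407, Chrm4 from 0.030 to 0.313 and Adora1 from 0.043 to -0.257. None of these passed either (limma, adjusted p = 0.658 to 0.775). The marker median was itself higher on most METH arrays, so METH and marker level cannot be told apart by this fit. Whether tissue content has a part in the differences was not tested. The log2 fold changes were 0.73 ± 0.28 SE for Sstr1, 0.57 ± 0.20 SE for Sstr2, 0.55 ± 0.20 SE for Chrm3, 0.14 ± 0.28 SE for Chrna4, 0.086 ± 0.21 SE for Adra1b, -0.23 ± 0.18 SE for Htr3a and -0.19 ± 0.21 SE for Htr7, and none passed (limma, adjusted p = 0.485 to 0.967). With a stricter set of 5 markers chosen after the data were seen (Slc17a7, Neurod1, Neurod2, Neurod6 and Fezf2) they were 0.743, 0.716, 0.597, 0.325, 0.163, -0.342 and -0.279 in the same order of genes. Markers of striatal projection neurons were mostly lower with METH. Over the 21 tested the median was -0.405 (log2 fold change), none passed, and their summed linear level was 15440 to 26840 on METH arrays and 27550 to 32010 on saline arrays.

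**Figure D4:**
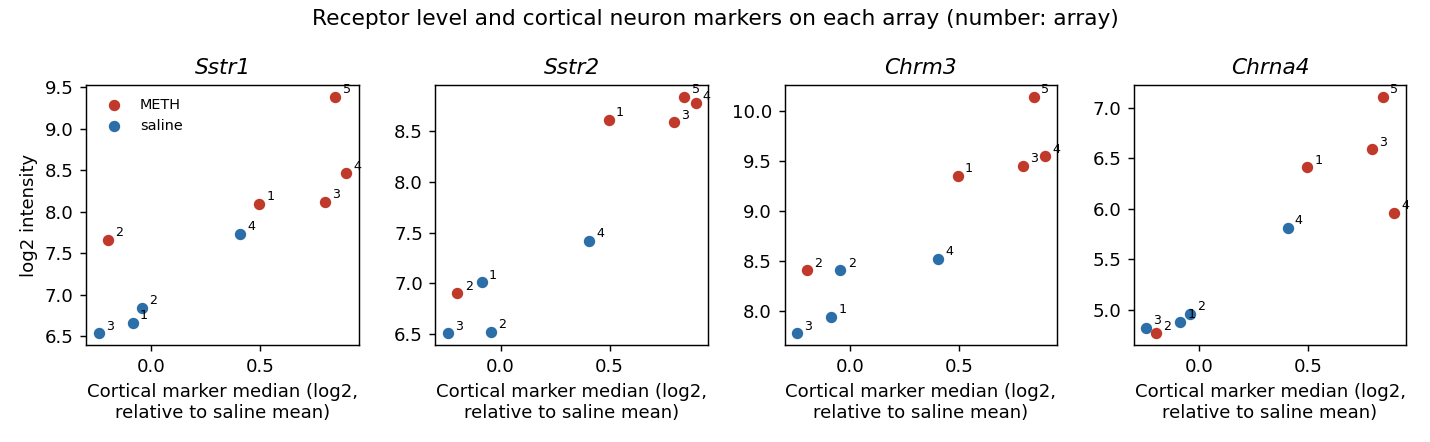
Normalised level (vertical axis, log2 intensity) of Sstr1, Sstr2, Chrm3 and Chrna4 against the median of 9 cortical neuron markers (horizontal axis, log2 relative to the saline mean) on each of the 9 arrays, numbered within METH and saline. METH array 2 sits with the saline arrays at -0.198, and METH arrays 3, 4 and 5 lie furthest right at 0.795 to 0.895.

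The genes most like the 3 leading receptors were found from deviations from the group means over the 9 arrays, as a description across arrays that share slides. For Sstr1 they were Pcyox1 (Pearson's r = 0.982), Map1b (0.978) and Clcn7 (0.978), for Chrm3 Ak4 (0.987), Nras (0.977) and Nmt2 (0.967), and for Sstr2 Hs3st2 (0.982), Ccn3 (0.98) and Anxa11 (0.977). None of the 64 genes was among these 9, which says little, as 30 of 7331 tested probes with a gene name were receptor probes.

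Ligands of the receptors were measured on the same arrays. Of 18 peptide precursor genes written for the list, 17 had a named probe and 11 were tested, and 1 was called, where 0.521% of all probes tested were. Crh, whose product acts on the corticotropin-releasing hormone receptors, had a mean level of 7.32 ± 0.75 with METH and 5.54 ± 0.31 with saline (SD, n = 5 and 4), a 3.43-fold rise (limma, adjusted p = 0.0276), which did not pass without METH array 1 or 3 or saline array 1, 2 or 3. Cort, the cortistatin precursor, a ligand of the somatostatin receptors, averaged 6.72 ± 0.85 with METH and 5.45 ± 0.14 with saline (log2 fold change 1.27 ± 0.34 SE, limma adjusted p = 0.182). Sst itself averaged 10.11 ± 0.32 with METH and 9.82 ± 0.22 with saline (log2 fold change 0.29 ± 0.17 SE). Pdyn and Penk, the dynorphin and enkephalin precursors, had -0.47 ± 0.17 SE and -0.62 ± 0.25 SE (limma, adjusted p = 0.315 and 0.38), and the list median was -0.064.

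Genes that make, carry or break down monoamines and acetylcholine were mostly below background, as 17 of 22 had a named probe and 6 were tested, with none called and a median log2 fold change of -0.20. The widest difference was that of Slc18a3, the vesicular acetylcholine transporter of cholinergic neurons, which averaged 5.75 ± 0.44 with METH and 6.73 ± 0.48 with saline (log2 fold change -0.98 ± 0.25 SE, limma adjusted p = 0.165). Slc5a7, the choline transporter of the same neurons, was above background on 2 of 5 METH arrays and 4 of 4 saline arrays (-0.59 ± 0.26 SE). Maob, which breaks down monoamines, had -0.18 ± 0.13 SE.

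Of 28 written kinases, arrestins and partners of receptors, 19 had a named probe and 15 were tested, with none called and a median of 0.051. The smallest p belonged to Cnrip1, which binds the cannabinoid receptor (log2 fold change 0.46 ± 0.12 SE, limma adjusted p = 0.172), and to Crhbp, which binds corticotropin-releasing hormone (1.04 ± 0.31 SE, adjusted p = 0.225). Ramp1, a partner of the calcitonin receptor family, had -0.77 ± 0.29 SE, and Grk2, a kinase that switches off active receptors, had 0.51 ± 0.21 SE. The median of all probes tested was -0.023.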

How the data were processed

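Rat nucleus accumbens RNA was hybridised to Illumina beadchips. The authors deposited intensities made with BeadStudio, per the submitters' processing notes (version not given in the sources used here). Values below 0 and differing medians show background subtraction and no scaling across arrays. A deposited detection p-value stood beside each intensity. Both deposited tables held the same intensities on the 9 arrays used (largest difference 0). The 23 arrays of a later run were not used, because their rows do not match the probe IDs.

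Intensities were normalised with neqc in limma 3.58.1 (R 4.3.3), with an offset of 16, log2 and quantile normalisation. The 9987 probes detected (p under 0.05) on 4 or more of 9 arrays were tested with lmFit and a two-sided moderated test (eBayes, trend on intensity) and Benjamini-Hochberg adjustment over all of them. The test was checked on simulated data. Gene names are those of the platform annotation (13793 probes with 1 name, 0 with several, 8730 with none). Promoters are RefSeq's, found for 52 of 64 genes. The number of arrays limits the precision.

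The receptors and gene lists were chosen with earlier results of these data known. Values on each array are given for the 12 tested receptor probes with the smallest p, for a set list of widely studied receptors, and for probes detected on at least 3 more arrays of one group. Every other tested receptor is given by its fold change or range. Of each list, up to 4 genes with the lowest p could be named, and Sst was added with its value already known. Marker lists also covered interneurons, neighbouring subcortical neurons, astrocytes, oligodendrocytes, microglia, vessels, choroid plexus and blood. Of these, none had a member that passed, and the median log2 fold changes were 0.29, -0.11, -0.068, 0.023, -0.031, -0.18, -0.19 and -0.54 in that order. Alternatives were other background correction, scaling, detection filters, no trend, weights per array, blocks for slide or for replicate number, each slide alone, cortical markers as a covariate and single arrays left out.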

Additional observations from a re-analysis of the deposited data

Results flagged for a closer look

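In 5 of 60 groups of arrays checked (30 receptor probes with METH and with saline), 1 array stood apart from the rest by more than Dixon's 95% critical value, and chance flags about 1 in 20 groups. With METH, Sstr2 was 6.899 on array 2, where the nearest METH array had 8.589. With saline, array 4 was high for Chrna4 (5.811, nearest 4.965), Chrna5 (6.309, nearest 5.208) and Hrh3 (8.217, nearest 7.736). Saline array 2 was low for Cnr1 (6.736, nearest 7.007). METH array 2 had the lowest and saline array 4 the highest median of the cortical neuron markers within its group, and the part of these markers in the single high or low values was not tested.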

How the results depend on the processing

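Of 634 receptor fold changes recomputed under up to 22 alternatives each, 14 passed where the reported fit did not, and none passed with the opposite sign. These 14 belonged to 5 receptors (Sstr1, Sstr2, Chrm3, Chrna4 and Htr7). Whether passing or not, only 10 of the 30 receptor probes kept the sign of the reported fit under every alternative. Probes called numbered 225 in unscaled intensities, 251 with array weights, 16 within slide 2, 82 with the replicate block and 32 to 250 with single arrays left out, against 52. Without METH array 2 there were 250, without saline array 2 there were 32 and without saline array 3 there were 33. Receptor probes called numbered 3 in unscaled intensities, 3 with array weights, 2 with the replicate block and 0 to 5 with single arrays left out, against 0. The receptor median was 0.303 in unscaled intensities, where that of all probes was 0.23. The count of receptor probes above background was 19 at a detection p under 0.01, 35 at a detection p under 0.10 and 29 to 30 with single arrays left out, against 30. The labels number the arrays alike in both groups, but deviations of same-numbered arrays correlated at 0.0721, 0.0953, 0.0801 and 0.247, and 2 of 8 arrays correlated best with their own number, so the numbers were not taken as pairs. The replicate block, which does compare arrays within their number, called Sstr1 (limma, 1.14, adjusted p = 0.0171) and Sstr2 (1.36, adjusted p = 0.0406). Number 5 occurs only with METH, so METH array 5 adds nothing to these 2 estimates. For the 3 lists of ligands, enzymes and receptor partners, 15 of 66 recomputed counts moved by over 1.5 times. The offset understates the fold changes of receptors near background.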

Other observations

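Of the 7 receptors above background on 1 array each, Drd5, Htr1b, Chrna7 and Chrng were detected on METH array 5, Htr4 and Htr1f on METH array 2 and Htr5b on saline array 3. Htr4, a Gs-coupled serotonin receptor, read 3.6, 40.2, -6.2, -0.2 and -2.6 on METH arrays 1 to 5, against 1.9, -5.4, 6.6 and 4.7 on saline arrays 1 to 4 in deposited intensities, where METH array 2 stood apart from the other 8. Htr1f, a Gi-coupled serotonin receptor, read 19.5, 39.6, 10.1, 8.5 and 7.9 on METH arrays 1 to 5, against 17.5, 8.6, 10.6 and 7.7 on saline arrays 1 to 4, and METH array 2 was again highest. Chrna7, a nicotinic subunit, read 13.4, 14.2, 17.6, 18.3 and 21 on METH arrays 1 to 5, against 9.3, 13.5, 14.1 and 14.9 on saline arrays 1 to 4, where METH array 5 lay close to METH arrays 3 and 4.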
